A study of Mus musculus with 34 samples.

Results

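The keratins of basal and luminal mammary epithelial cells (MECs) were followed across 4 sorted populations of mouse MECs. The members were the 10 genes Krt5, Krt14, Krt15, Krt17, Krt7, Krt8, Krt18, Krt19, Krt23 and Krt10, chosen by name and found through the gene symbols of the array's probes, which gave 11 probes among the 45281 on the array and 10 of its 19057 named genes. Cells came from virgin females, 4 weeks of age, from MMTVrtTA mice on FVB crossed with H2BGFP mice of CD1 origin backcrossed to FVB. The females carried both MMTVrtTA and a tetracycline-inducible H2BGFP fusion gene and were kept on doxycycline. GFP+ and GFP- cells therefore shared both transgenes and the drug, and GFP marked the MECs in which the mouse mammary tumor virus (MMTV) promoter had switched on H2BGFP. The groups were GFP+ CD24+/CD29+ (n = 9), GFP- CD24+/CD29+ (n = 6), GFP+ CD24+/CD29lo (n = 9) and GFP- CD24+/CD29lo (n = 10), with 1 Illumina whole genome array for each sample. The labels do not say that the samples came from separate animals, and p-values here reflect only how far these samples spread, which may be partly technical.

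Keratins are the intermediate filament proteins of epithelia, and a filament needs an acidic type I keratin paired with a basic or neutral type II keratin. In the mammary gland the outer, basal and myoepithelial layer is known for the type II keratin Krt5 and its type I partner Krt14, with Krt15 and Krt17 as further type I keratins of basal cells. The inner, luminal layer is known for the simple epithelial pair Krt8 and Krt18, with the type II keratin Krt7 and the type I keratin Krt19. Krt23 is a less studied type I keratin, listed here with the luminal genes, and Krt10 is the type I keratin of the suprabasal, cornifying layers of skin.

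The genes lie in 2 clusters, with the type II members and Krt18 on chromosome 15 and the other type I members on chromosome 11. Krt8 and Krt18, a filament pair, are neighbors in the RefSeq gene order, and so are Krt15 and Krt19, keratins of different layers. RefSeq promoter sequences (build GRCm38.p6, 250 bases before to 50 bases after the gene start) were held for 7 of the 10 members. The 5 shown are those of the basal pair, the luminal pair and Krt7, whose differences between the sorted groups are described below, and capitals mark matches on either strand to a TATA box (TATAAA), a GC box (GGGCGG) or an AP-2 motif (GCCNNNGGC).
Krt5 (chr15:101712856-101713155, minus strand): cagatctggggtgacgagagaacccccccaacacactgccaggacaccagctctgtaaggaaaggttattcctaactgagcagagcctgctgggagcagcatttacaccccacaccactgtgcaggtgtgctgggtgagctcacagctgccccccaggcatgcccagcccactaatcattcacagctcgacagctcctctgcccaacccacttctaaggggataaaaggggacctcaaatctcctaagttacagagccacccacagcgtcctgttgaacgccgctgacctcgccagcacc
Krt14 (chr11:100205981-100206280, minus strand): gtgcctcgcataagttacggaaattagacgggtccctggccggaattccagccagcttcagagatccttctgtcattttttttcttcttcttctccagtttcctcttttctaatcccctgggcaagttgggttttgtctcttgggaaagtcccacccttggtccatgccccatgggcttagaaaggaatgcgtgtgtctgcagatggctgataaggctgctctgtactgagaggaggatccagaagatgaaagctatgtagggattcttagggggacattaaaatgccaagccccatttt
Krt7 (chr15:101412153-101412452, plus strand): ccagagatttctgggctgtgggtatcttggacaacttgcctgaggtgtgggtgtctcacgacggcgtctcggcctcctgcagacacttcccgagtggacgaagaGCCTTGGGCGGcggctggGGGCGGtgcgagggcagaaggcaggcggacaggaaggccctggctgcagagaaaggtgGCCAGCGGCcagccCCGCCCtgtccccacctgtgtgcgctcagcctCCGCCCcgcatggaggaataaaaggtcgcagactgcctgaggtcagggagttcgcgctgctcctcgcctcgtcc
Krt8 (chr15:102004293-102004592, minus strand): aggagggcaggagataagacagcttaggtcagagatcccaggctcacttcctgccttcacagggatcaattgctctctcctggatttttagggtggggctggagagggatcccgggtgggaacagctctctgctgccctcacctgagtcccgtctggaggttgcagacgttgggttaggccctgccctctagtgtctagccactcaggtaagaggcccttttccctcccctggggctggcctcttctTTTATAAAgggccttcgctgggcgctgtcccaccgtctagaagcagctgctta
Krt18 (chr15:102027966-102028265, plus strand): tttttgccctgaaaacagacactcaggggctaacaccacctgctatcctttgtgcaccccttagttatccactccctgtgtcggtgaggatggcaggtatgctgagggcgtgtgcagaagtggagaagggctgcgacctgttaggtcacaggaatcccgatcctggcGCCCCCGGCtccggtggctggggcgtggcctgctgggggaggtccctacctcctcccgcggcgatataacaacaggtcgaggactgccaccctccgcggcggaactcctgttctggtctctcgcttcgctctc

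None of the 3 letter strings occurred in the windows of Krt5 and Krt14. The Krt7 window held 4 GC boxes and 2 AP-2 matches, of which the AP-2 match at -146 overlaps the GC box at -141. The Krt8 window held TATAAA on both strands, at -3 and -1, in 1 overlapping palindrome, and the Krt18 window held 1 AP-2 match at -83. Of the windows not printed, that of Krt10 held TATAAA at -26 and that of Krt23 held no match. Over all 32851 promoter windows of this length, 13.6% held the TATA box, 35.7% the GC box and 16.6% the AP-2 motif, and a match describes letters only.

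Levels below are log2 signals after background correction and quantile normalization of the 34 arrays. A level belongs to 1 probe and is compared only between samples for that probe, and a gene is represented by its probe of highest mean level. A probe was detected when its detection p was under 0.05, and between 26.3% and 46.7% of all probes were detected on an array. The arrays fell into 2 sets, replicates 1 to 12 and replicates 13 to 34, seen as a gap in the medians of the processed values, and the 6 GFP- CD24+/CD29+ arrays all lay in the second set. Basal markers separated the gates without overlap. The summed level of 15 basal and myoepithelial markers was 36040 to 46107 in GFP+ CD24+/CD29+ cells and 31229 to 45800 in GFP- CD24+/CD29+ cells, against 1582 to 9259 in GFP+ CD24+/CD29lo cells and 1572 to 3217 in GFP- CD24+/CD29lo cells. Luminal markers also separated them by their mean log2 level over 12 genes. This mean was 6.44 to 6.88 in GFP+ CD24+/CD29+ and 6.62 to 7.45 in GFP- CD24+/CD29+ cells. In CD24+/CD29lo cells the mean was 8.73 to 9.14 (GFP+) and 8.85 to 9.29 (GFP-). The summed level of these 12 overlapped between the gates over both sets of arrays, though not within either set. The sums were 8062 to 25118 in GFP+ CD24+/CD29+ and 16664 to 24617 in GFP- CD24+/CD29+ cells. They were 19706 to 39082 in GFP+ CD24+/CD29lo and 17319 to 40578 in GFP- CD24+/CD29lo cells. In the gate for CD24+/CD29+ cells the luminal regulator Elf5 was detected on 2 of 9 GFP+ arrays and 5 of 6 GFP- arrays, against all 19 arrays of CD24+/CD29lo cells. Other luminal markers went the other way between GFP+ and GFP- cells of that gate. Erbb3 and Prom1 were detected on no GFP- array but on at least 1 GFP+ array, and Foxa1 on no array of either group.

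The first question was how far the keratins separate the 2 gates. CD24+/CD29+ cells had more Krt5, Krt14, Krt15 and Krt17 and less Krt7, Krt8, Krt18 and Krt19 than CD24+/CD29lo cells, in GFP+ and in GFP- cells alike. Krt23, listed as luminal, was also higher in the CD24+/CD29+ gate, so for this gene the data go against the list's name. Among GFP+ cells 5 members were called higher, where 6.74% of the 16428 genes tested were called higher, and 4 were called lower, where 6.19% were (limma, Benjamini-Hochberg adjusted p under 0.05). Among GFP- cells the counts were again 5 higher, against 6.65% of genes, and 4 lower, against 6.32%. Krt10 was the member not called in either comparison. The median size of the difference over the 10 members was 3.71 log2 units in GFP+ cells and 3.68 in GFP- cells, beside 0.23 and 0.29 over all genes tested. In a bulk sample, fewer cells of a type and less RNA per cell cannot be told apart.

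**Figure D1:**
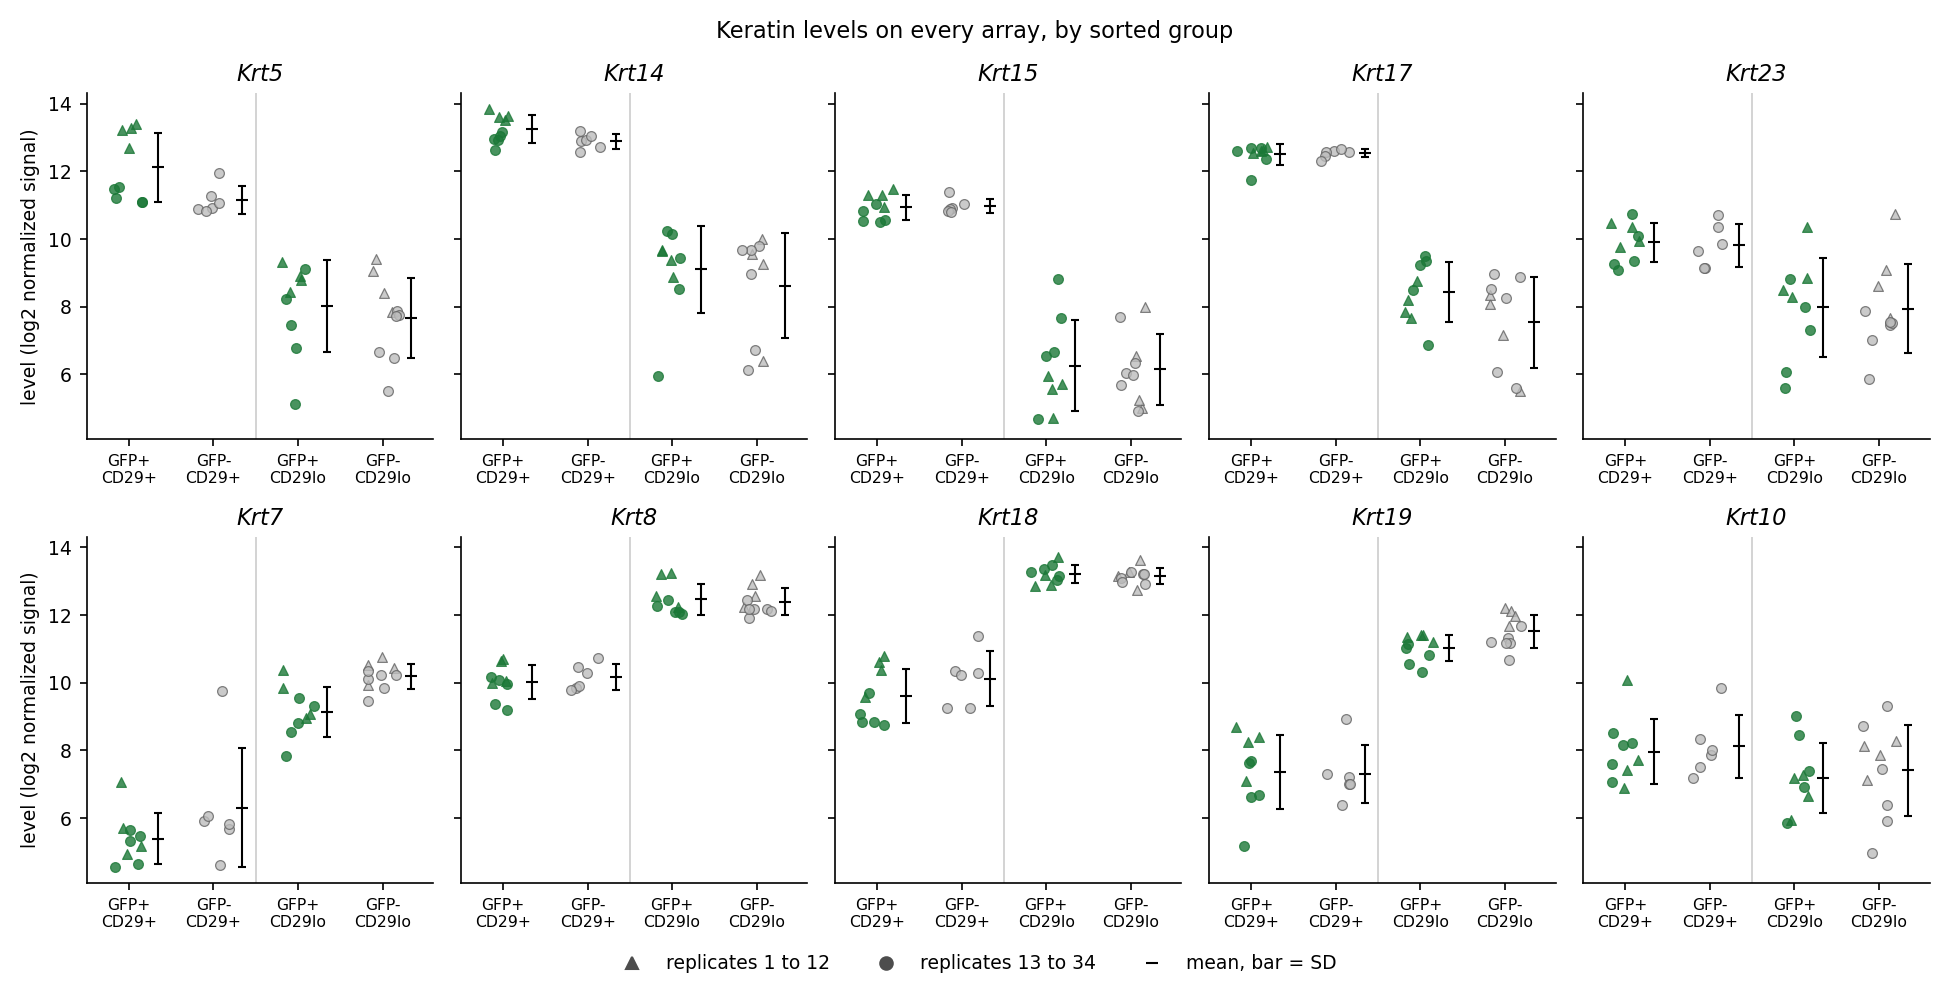
Level of each keratin (vertical axis, log2 normalized signal of its probe) on each of the 34 arrays, by sorted group on the horizontal axis, with triangles for replicates 1 to 12, circles for replicates 13 to 34, and the group mean with its SD beside the points. Krt5, Krt14, Krt15 and Krt17 lay without overlap above in the CD24+/CD29+ gate, and Krt8, Krt18 and Krt19 without overlap below. Heights are not comparable between panels.

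Among the basal keratins, Krt5 (lowest, median and highest level) was at 11.09, 11.54 and 13.40 in GFP+ CD24+/CD29+ cells, against 5.13, 8.42 and 9.31 in GFP+ CD24+/CD29lo cells. In GFP- cells Krt5 was at 10.83, 10.99 and 11.95 in the CD24+/CD29+ gate, against 5.52, 7.80 and 9.42 in the CD24+/CD29lo gate. No CD24+/CD29+ array fell as low as the highest CD24+/CD29lo array. Krt5 was 17.1-fold higher in GFP+ cells (log2 difference 4.10, SE 0.51, adjusted p = 2.0e-07) and 11.2-fold higher in GFP- cells (3.48, SE 0.55, adjusted p = 2.3e-05). The GFP- value moves with the set of arrays, since all GFP- CD24+/CD29+ arrays but only 6 of the 10 GFP- CD24+/CD29lo arrays lay in the second set. With the set as a term the differences were 4.10 in GFP+ and 4.16 in GFP- cells, and within the second set 4.17 and 4.44. Without background correction they were 3.49 and 2.85. Krt14, its filament partner, was at 12.63, 13.15 and 13.84 in GFP+ CD24+/CD29+ cells, against 5.96, 9.45 and 10.25 in GFP+ CD24+/CD29lo cells. The GFP- samples had 12.58, 12.91 and 13.18 for Krt14 in the CD24+/CD29+ gate, against 6.12, 9.41 and 9.99 in the CD24+/CD29lo gate. These groups did not overlap either, and Krt14 was 17.8-fold higher in GFP+ cells (4.15, SE 0.51, adjusted p = 1.7e-07) and 19.3-fold higher in GFP- cells (4.27, SE 0.56, adjusted p = 7.5e-07).

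Krt15, a type I keratin of basal cells in stratified epithelia, was at 10.51, 10.95 and 11.47 in GFP+ CD24+/CD29+ cells, against 4.68, 5.94 and 8.83 in GFP+ CD24+/CD29lo cells. Its GFP- levels were 10.79, 10.90 and 11.38 in the CD24+/CD29+ gate, against 4.92, 6.02 and 7.99 in the CD24+/CD29lo gate. Krt15 was detected on all 15 CD24+/CD29+ arrays and on 16 of the 19 CD24+/CD29lo arrays, and its groups did not overlap. The difference was 25.7-fold in GFP+ cells (4.68, SE 0.43, adjusted p = 3.9e-10) and 28.4-fold in GFP- cells (4.83, SE 0.47, adjusted p = 2.0e-09), and its size depends on the background correction, without which it was 3.42 and 3.53. Krt17, which is also known as a keratin induced by injury, was at 11.74, 12.60 and 12.71 in GFP+ CD24+/CD29+ cells, against 6.88, 8.49 and 9.50 in GFP+ CD24+/CD29lo cells. In GFP- cells it was at 12.32, 12.58 and 12.65 in the CD24+/CD29+ gate, against 5.50, 8.16 and 8.96 in the CD24+/CD29lo gate. Krt17 was nearly level across the CD24+/CD29+ arrays, spread widely across the CD24+/CD29lo arrays, and did not overlap between them. It was 16.8-fold higher in GFP+ cells (4.07, SE 0.41, adjusted p = 2.8e-09) and 32.0-fold higher in GFP- cells (5.00, SE 0.44, adjusted p = 3.3e-10), or by 4.21 in GFP- cells without background correction.

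Of the luminal keratins, Krt18 was at 8.75, 9.56 and 10.78 in GFP+ CD24+/CD29+ cells, against 12.86, 13.19 and 13.70 in GFP+ CD24+/CD29lo cells. Among GFP- samples Krt18 was at 9.25, 10.25 and 11.38 in the CD24+/CD29+ gate, against 12.73, 13.18 and 13.63 in the CD24+/CD29lo gate. Krt18 was detected on all 34 arrays, did not overlap between the gates, and was 12.1-fold lower in the CD24+/CD29+ gate of GFP+ cells (-3.60, SE 0.26, adjusted p = 2.2e-12) and 8.13-fold lower in that of GFP- cells (-3.02, SE 0.29, adjusted p = 1.2e-09). Krt8, its type II partner, was at 9.19, 10.05 and 10.71 in GFP+ CD24+/CD29+ cells, against 12.03, 12.28 and 13.24 in GFP+ CD24+/CD29lo cells. In GFP- cells Krt8 was at 9.78, 10.08 and 10.72 in the CD24+/CD29+ gate, against 11.91, 12.21 and 13.18 in the CD24+/CD29lo gate. All CD24+/CD29+ arrays lay below all CD24+/CD29lo arrays of the same GFP state. Krt8 was 5.46-fold lower in GFP+ cells (-2.45, SE 0.21, adjusted p = 7.3e-11) and 4.69-fold lower in GFP- cells (-2.23, SE 0.23, adjusted p = 5.6e-09). The other Krt8 probe was detected on none of the 34 arrays, lay between 4.40 and 4.74 throughout, and was not called in the 4 comparisons that tested it, so the 2 probes of this gene disagree.

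Krt19, a type I keratin that lacks most of the tail domain, was at 5.18, 7.62 and 8.69 in GFP+ CD24+/CD29+ cells, against 10.33, 11.13 and 11.41 in GFP+ CD24+/CD29lo cells. Its GFP- levels were 6.38, 7.12 and 8.93 in the CD24+/CD29+ gate, against 10.68, 11.50 and 12.21 in the CD24+/CD29lo gate. The groups did not overlap, and Krt19 was 12.7-fold lower in the CD24+/CD29+ gate of GFP+ cells (-3.67, SE 0.34, adjusted p = 7.1e-10) and 18.5-fold lower in that of GFP- cells (-4.21, SE 0.38, adjusted p = 3.5e-10). Without background correction the differences were -2.94 and -3.48, and in GFP+ cells they were -2.80 within the first set and -4.28 within the second. Krt15 and Krt19, neighbors on the chromosome, thus differed between the gates in opposite directions. Krt7, a type II keratin of simple epithelia, was at 4.54, 5.33 and 7.06 in GFP+ CD24+/CD29+ cells, against 7.84, 9.07 and 10.37 in GFP+ CD24+/CD29lo cells. In GFP- cells Krt7 was at 4.62, 5.87 and 9.74 in the CD24+/CD29+ gate, against 9.46, 10.23 and 10.75 in the CD24+/CD29lo gate. Here the GFP- groups overlapped, through 1 array, replicate 25 of the GFP- CD24+/CD29+ group. In the CD24+/CD29+ gate 6 of 9 GFP+ arrays and 5 of 6 GFP- arrays detected Krt7, as did all 19 CD24+/CD29lo arrays. Krt7 was 13.5-fold lower in the CD24+/CD29+ gate of GFP+ cells (-3.75, SE 0.42, adjusted p = 3.7e-08) and 14.7-fold lower in that of GFP- cells (-3.88, SE 0.47, adjusted p = 1.6e-07). These sizes also depend on the background correction, without which they were -2.24 and -2.63.

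Krt23 was at 9.08, 9.93 and 10.75 in GFP+ CD24+/CD29+ cells, against 5.61, 8.27 and 10.35 in GFP+ CD24+/CD29lo cells. In GFP- cells Krt23 was at 9.13, 9.76 and 10.71 in the CD24+/CD29+ gate, against 5.87, 7.62 and 10.75 in the CD24+/CD29lo gate. The gates overlapped in both GFP states, through GFP+ replicate 4 and GFP- replicate 6 of the CD24+/CD29lo gate, both arrays of the first set. Krt23 was 3.79-fold higher in the CD24+/CD29+ gate of GFP+ cells (1.92, SE 0.51, adjusted p = 0.0099) and 3.66-fold higher in that of GFP- cells (1.87, SE 0.56, adjusted p = 0.026). Within the first set alone the GFP+ difference was 1.00 (SE 0.53, adjusted p = 0.32), and within the second set alone it was 2.74 (SE 0.57, adjusted p = 0.0044). In GFP- cells it was 2.42 (SE 0.48) with the set as a term and 2.79 (SE 0.52, adjusted p = 0.0015) within the second set. Krt10 was at 6.89, 7.72 and 10.09 in GFP+ CD24+/CD29+ cells, against 5.86, 7.18 and 9.00 in GFP+ CD24+/CD29lo cells. In GFP- cells Krt10 was at 7.18, 7.92 and 9.83 in the CD24+/CD29+ gate, against 4.96, 7.65 and 9.30 in the CD24+/CD29lo gate. Krt10 overlapped widely, with 95% intervals of the difference from -0.26 to 1.80 in GFP+ cells (adjusted p = 0.46) and from -0.42 to 1.84 in GFP- cells (adjusted p = 0.50).

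**Figure D2:**
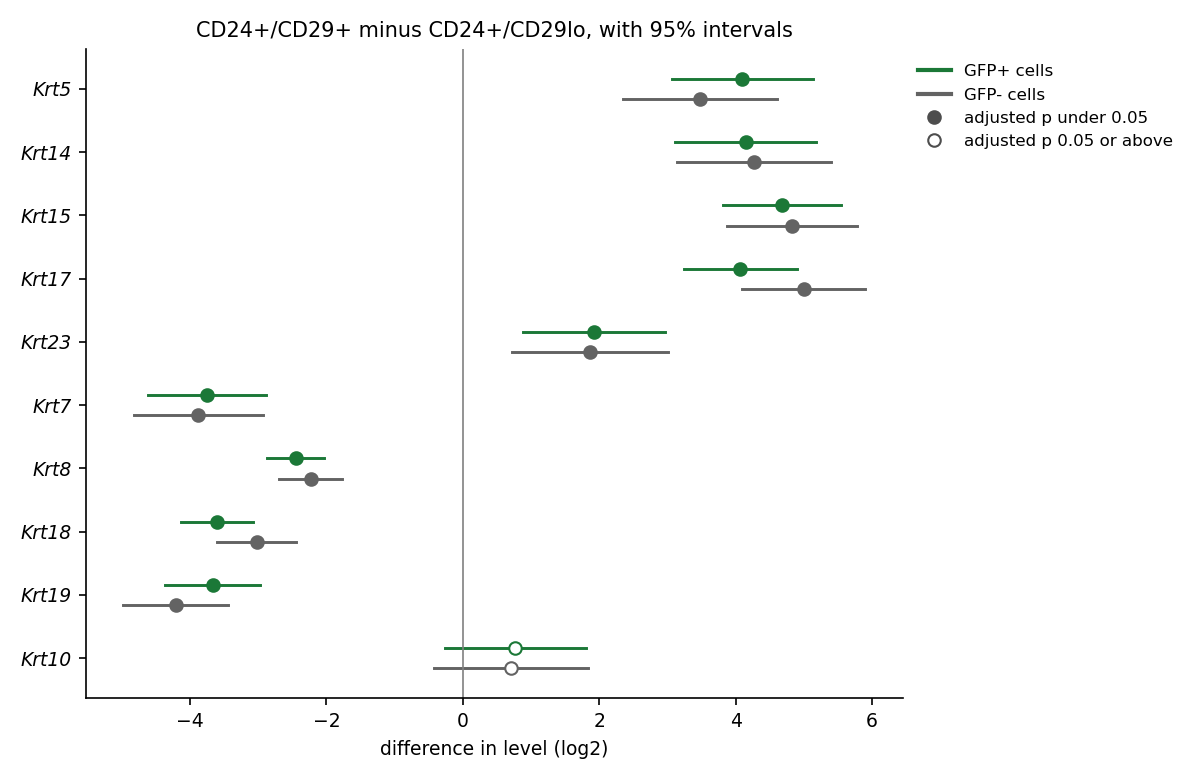
Difference in level between the gates (horizontal axis, log2 of CD24+/CD29+ over CD24+/CD29lo) for each keratin, with 95% intervals as lines, GFP+ cells in green above GFP- cells in gray, and filled points where the adjusted p was under 0.05. The 4 basal keratins and Krt23 lay above 0, Krt7, Krt8, Krt18 and Krt19 below 0, and the Krt10 intervals included 0.

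Counted over arrays, 8 of the 10 keratins did not overlap between the gates in GFP+ cells, where 3.84% of genes did not, and 7 of 10 in GFP- cells, where 4.46% did not. The difference made by the gate was also set against GFP in 1 fit. No keratin was called for the interaction (GFP effect in CD24+/CD29lo minus GFP effect in CD24+/CD29+), where 0.414% of the 16428 genes were called, and no keratin had an unadjusted p under 0.05. The widest estimate was that of Krt17, at 0.93 (95% interval -0.30 to 2.15, adjusted p = 0.70). Krt18 had 0.58 (-0.21 to 1.36, adjusted p = 0.71), and in the second set alone 1.29 (SE 0.41, adjusted p = 0.56).

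The sets of arrays moved the levels of several keratins within a group. Krt5 in GFP+ CD24+/CD29+ cells was at 12.70 to 13.40 on the 4 arrays of the first set and at 11.09 to 11.54 on the 5 arrays of the second set, with no overlap. Krt14 in the same group was at 13.51 to 13.84 in the first set and at 12.63 to 13.15 in the second. Krt18 in GFP+ CD24+/CD29+ cells averaged 10.33 ± 0.54 (SD, n = 4) in the first set and 9.04 ± 0.38 (SD, n = 5) in the second. For Krt5 the CD24+/CD29lo arrays shifted in the same direction, with GFP+ means of 8.86 ± 0.36 (SD, n = 4) and 7.35 ± 1.51 (SD, n = 5) in the first and second set. Krt18 in GFP+ CD24+/CD29lo cells averaged 13.16 ± 0.39 (SD, n = 4) and 13.25 ± 0.18 (SD, n = 5), so its difference between the gates was -2.32 (SE 0.25, adjusted p = 1.3e-04) within the first set and -4.46 (SE 0.31, adjusted p = 8.3e-09) within the second. What separates the sets was not tested.

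Within the CD24+/CD29lo gate the basal keratins were uneven, and 4 arrays were low in several of them. Krt14 was at 5.96 in GFP+ replicate 16 and between 8.52 and 10.25 in the other 8 GFP+ CD24+/CD29lo samples. In GFP- CD24+/CD29lo cells Krt14 was at 6.40, 6.71 and 6.12 in replicates 5, 26 and 31 and between 8.96 and 9.99 in the other 7. The same 3 GFP- samples had the lowest Krt17, at 5.50, 5.61 and 6.07, against 7.17 to 8.96 in the other 7. Replicate 16 likewise had the lowest Krt17 and Krt5 of its group, at 6.88 and 5.13. Krt5 was at 5.52 and 6.48 in GFP- replicates 26 and 31. In GFP- replicate 5 Krt5 was not low, at 8.41, where the GFP- CD24+/CD29lo median was 7.80. Over the 19 CD24+/CD29lo arrays Krt14 and Krt17 had a Pearson r of 0.86, and of 0.94 after the mean of each group and set was taken off. Krt5 and Krt14 had r values of 0.69 and 0.78 by the same 2 measures. Over the 15 CD24+/CD29+ arrays Krt14 and Krt17 had r values of 0.45 and 0.51. These are descriptions over arrays that share a normalization.

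**Figure D3:**
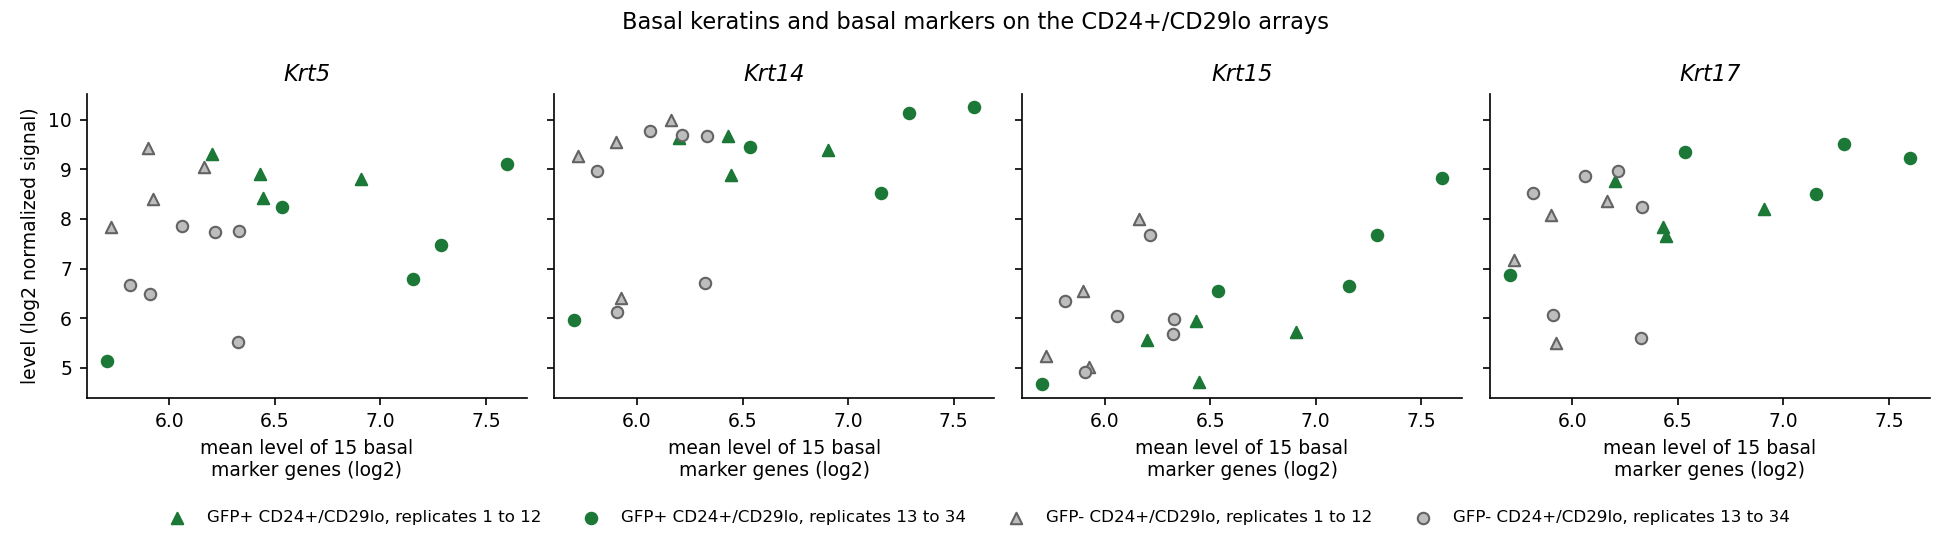
Level of Krt5, Krt14, Krt15 and Krt17 (vertical axis, log2 normalized signal) on each of the 19 CD24+/CD29lo arrays against the mean level of 15 basal and myoepithelial marker genes on the same array (horizontal axis, log2), with GFP+ samples in green, GFP- samples in gray, triangles for replicates 1 to 12 and circles for replicates 13 to 34. Krt14 lay at 5.96 to 6.71 on 4 arrays and at 8.52 to 10.25 on the other 15.

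The basal markers were low on 1 of these 4 arrays and, on the other 3, inside the range of the remaining samples of their group. The mean log2 level of the 15 markers was 5.70 in GFP+ replicate 16, the lowest of its group. In GFP- replicates 5, 26 and 31 it was 5.92, 6.32 and 5.91, within the 5.72 to 6.33 of the remaining GFP- CD24+/CD29lo samples. GFP+ replicate 22 had the highest marker mean of the gate, at 7.60, and also the highest Krt14 and Krt15 of the gate, at 10.25 and 8.83, with 26.3% of probes detected, the lowest share of the 34 arrays. The part of basal cells and of detection in these levels was not tested.

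Luminal keratins in the CD24+/CD29+ gate had 1 sample that stood apart. GFP- replicate 25 had Krt7 at 9.74, where the other 5 GFP- CD24+/CD29+ samples had 4.62 to 6.07. Its Krt19 was at 8.93, against 6.38 to 7.31, and its Krt18 at 11.38 was the highest of the 15 CD24+/CD29+ arrays. The mean level of 12 luminal markers on this array, 7.45, was also the highest of the gate, where the other 14 arrays ran up to 7.09, and its summed luminal level of 22984 lay inside the group's range of 16664 to 24617. Its mean level of the 15 basal markers, 9.17, was the lowest of the 15 arrays, next to 9.18 in GFP- replicate 30, and its 33.1% of detected probes was the lowest of the gate. The part of luminal cells and of detection in its keratin levels was not tested. Without this array the Krt7 difference between the gates in GFP- cells was -4.54 (adjusted p = 1.5e-11). Within groups of the CD24+/CD29+ gate Krt7 and Krt18 had an r of 0.74 over the 15 arrays after the mean of each group and set was taken off.

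The next question was whether GFP separates the keratins within a gate. In CD24+/CD29lo cells none of the 10 members was called (limma), where 1.47% of the 14867 genes tested were called, and 2 members, Krt7 and Krt19, had an unadjusted p under 0.05. For these comparisons the arrays of a gate were normalized on their own, and Krt7 (lowest, median and highest level) was at 7.85, 9.06 and 10.36 in GFP+ cells, against 9.45, 10.22 and 10.74 in GFP- cells. The groups overlapped, and the difference was -1.04 (SE 0.26, 95% interval -1.57 to -0.50, adjusted p = 0.060). With the array set as a term in the fit, the Krt7 difference was -1.06 (SE 0.23, adjusted p = 0.019), and 2.23% of genes were called. Within the first and second set alone it was -0.74 (SE 0.30, adjusted p = 0.29) and -1.31 (SE 0.31, adjusted p = 0.20). Leaving out GFP+ replicate 4, GFP+ replicate 10 or GFP- replicate 20 gave -1.19, -1.13 and -1.12 (adjusted p = 0.012, 0.045 and 0.036). Krt7 was not called in the other left-out fits, and over all 19 its difference ran from -1.19 to -0.86 (adjusted p from 0.012 to 0.115). Krt19 was at 10.32, 11.13 and 11.40 in GFP+ cells, against 10.67, 11.48 and 12.17 in GFP- cells, which also overlapped. Its difference was -0.49 (95% interval -0.91 to -0.07, adjusted p = 0.38), which became -0.52 (SE 0.13, adjusted p = 0.049) with the set as a term. Krt8 and Krt18 had narrow intervals that included 0, from -0.33 to 0.48 for Krt8 and from -0.21 to 0.35 for Krt18. The basal keratins had wide ones, from -0.81 to 1.47 for Krt5, from -0.81 to 1.76 for Krt14, from -0.99 to 1.20 for Krt15 and from -0.15 to 1.92 for Krt17. Krt23 had -1.21 to 1.28 and Krt10 had -1.29 to 0.88. Of the 15 basal markers 1 was called higher in GFP+ cells of this gate, the smooth muscle actin Acta2 (2.61, SE 0.61, adjusted p = 0.044), and 7 of the 9 GFP+ summed levels (3222 to 9259) lay above the highest GFP- one of 3217. The medians of the sums were 3862 in GFP+ cells and 2358 in GFP- cells. Of the 12 luminal markers 1 was called lower in GFP+ cells of this gate, Foxa1, whose values are given below. Of the other marker lists, the keratinocyte gene Sbsn was higher (1.36, SE 0.26, adjusted p = 0.011) and the adipocyte gene Fabp4 lower (-2.13, SE 0.42, adjusted p = 0.013) in GFP+ cells of this gate. The sample with the highest sum, replicate 22, had the lowest Krt7 of the gate, at 7.84, and the lowest share of detected probes of all 34 arrays, 26.3%, where the next lowest array had 33.1%. Without it the Krt7 difference was -0.86. The part of basal cells and of this array's low detection in the Krt7 value was not tested.

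In CD24+/CD29+ cells none of the 10 members was called, where 0.0521% of the 15348 genes tested were called. Krt5 had the one unadjusted p under 0.05, with a difference of 0.97 (SE 0.43, 95% interval 0.06 to 1.88, adjusted p = 0.56). All GFP- samples of this gate lay in the second set, where the difference was 0.13 (SE 0.22, adjusted p = 0.97), with Krt5 at 11.09 to 11.54 in GFP+ cells and 10.83 to 11.95 in GFP- cells. Krt14 differed by 0.34 (-0.03 to 0.71) over both sets and by 0.05 (SE 0.14) within the second. Krt15 (-0.39 to 0.33) and Krt17 (-0.34 to 0.28) had the narrowest intervals over both sets, and within the second set differed by -0.29 (SE 0.15) and -0.14 (SE 0.19). Krt18 was 1.14 log2 units apart within the second set, at -1.14 (SE 0.39, adjusted p = 0.97), and -0.51 (-1.38 to 0.35) over both. Krt7 (-2.23 to 0.42), Krt8 (-0.65 to 0.36), Krt19 (-1.05 to 1.16), Krt23 (-0.57 to 0.74) and Krt10 (-1.19 to 0.88) had intervals over both sets that included 0. Within the second set Krt7 differed by -1.14 (SE 0.79), Krt8 by -0.43 (SE 0.25) and Krt19 by -0.57 (SE 0.56). Krt23 differed there by -0.11 (SE 0.40) and Krt10 by -0.22 (SE 0.49), and none of these was called. A p that missed the threshold does not show that the groups were alike.

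**Figure D4:**
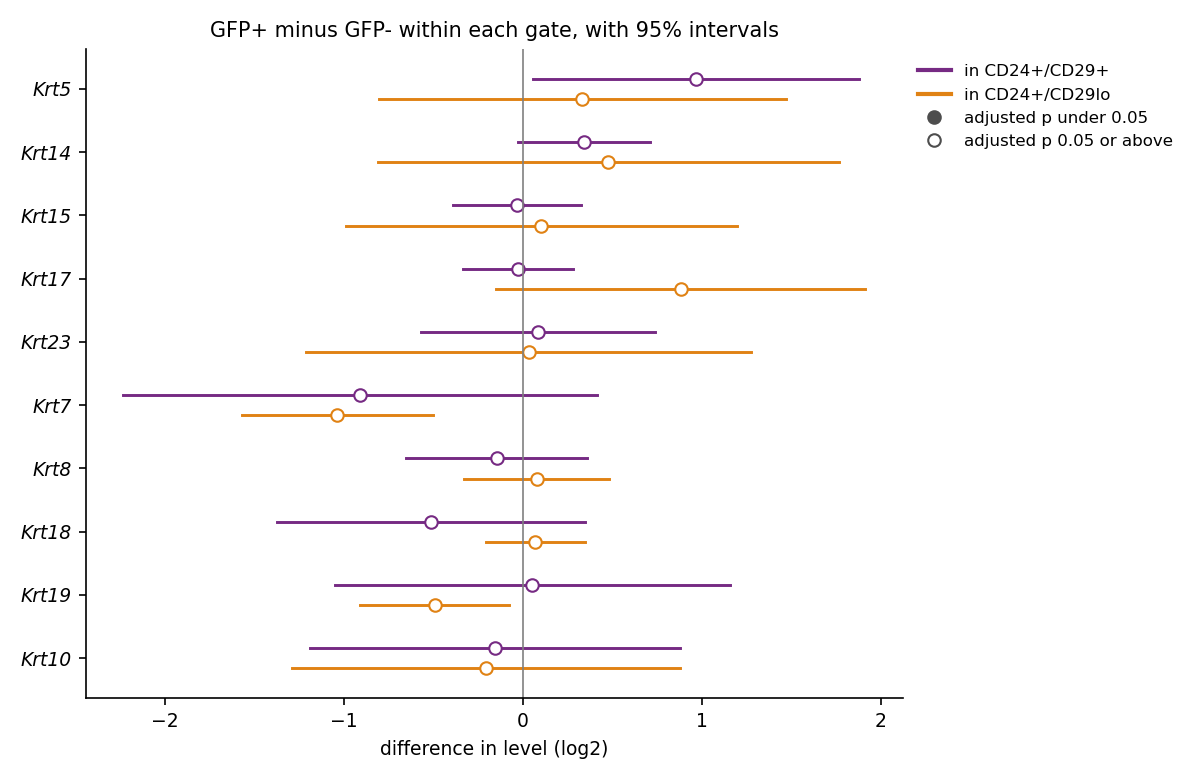
Difference in level between GFP+ and GFP- cells (horizontal axis, log2 of GFP+ over GFP-) for each keratin, with 95% intervals as lines, CD24+/CD29+ cells in purple above CD24+/CD29lo cells in orange. No point is filled, since no adjusted p was under 0.05, and the intervals that left out 0 were those of Krt7 and Krt19 in CD24+/CD29lo cells and of Krt5 in CD24+/CD29+ cells. The CD24+/CD29+ intervals pool both sets of arrays, while all GFP- samples of that gate lay in the second set.

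Across the 4 groups the gate thus set the order of the levels. The Krt14 means were 13.25 in GFP+ CD24+/CD29+ and 12.89 in GFP- CD24+/CD29+ cells, above 9.10 in GFP+ CD24+/CD29lo and 8.61 in GFP- CD24+/CD29lo cells. The Krt18 means were 9.61 in GFP+ CD24+/CD29+ and 10.12 in GFP- CD24+/CD29+ cells, below 13.21 in GFP+ CD24+/CD29lo and 13.15 in GFP- CD24+/CD29lo cells.

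Other genes of the filament system were taken from lists. Of 42 other keratin genes, 36 had a named probe and 27 were tested. Krt42, a type I keratin next to Krt17 in gene order, was called higher in the CD24+/CD29+ gate of GFP+ cells (1.75, SE 0.51, adjusted p = 0.022) and of GFP- cells (2.62, SE 0.56, adjusted p = 0.0014). In the CD24+/CD29+ gate 8 of 9 GFP+ arrays and 6 of 6 GFP- arrays detected Krt42, against 1 of 9 and 2 of 10 in the CD24+/CD29lo gate. Krt78 was detected on no GFP- CD24+/CD29+ array and on 9 of 10 GFP- CD24+/CD29lo arrays, at least 3.70-fold lower in the CD24+/CD29+ gate (adjusted p = 0.0014, where the bound sets the mean of the bright group against the lowest detected signal of each array). The other 26 keratins in GFP+ cells and 25 in GFP- cells were not called. No other keratin was called with GFP, and the 2 of highest mean level had differences of 0.33 (Krt80) and -1.36 (Krt16) in CD24+/CD29lo cells, and of -1.02 (Krt42) and 0.25 (Krt16) in CD24+/CD29+ cells. Near-identical keratin genes can share probes, and the probe sequences were not analysed here. The median difference of the list was 0.00 in GFP+ cells and -0.05 in GFP- cells, beside -0.01 and 0.03 over all genes.

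Of 17 tested genes that tie keratin to desmosomes and hemidesmosomes, 4 were called higher and 3 lower in the CD24+/CD29+ gate of GFP+ cells, and 5 higher and 4 lower in that of GFP- cells. Col17a1, the hemidesmosomal collagen, was higher by 4.52 (SE 0.45, adjusted p = 3.4e-09) in GFP+ cells and by 5.57 (SE 0.50, adjusted p = 3.8e-10) in GFP- cells. Dst, whose epithelial form anchors keratin to hemidesmosomes, was higher by 2.96 (SE 0.36, adjusted p = 1.3e-07) and by 2.68 (SE 0.39, adjusted p = 5.6e-06) in the same order. Among desmosomal genes, the plakophilin Pkp2 was lower in GFP+ cells (-3.12, SE 0.39, adjusted p = 2.1e-07) and Perp was higher (2.28, SE 0.20, adjusted p = 3.0e-10). In GFP- cells the plakin Evpl (-2.41, SE 0.43, adjusted p = 1.3e-04) and the desmocollin Dsc2 (-2.41, SE 0.55, adjusted p = 0.0024) were lower. The list's median difference was 0.21 in GFP+ cells and 0.54 in GFP- cells, beside -0.01 and 0.03 over all genes. With GFP, none of the 17 was called in either gate, where the plakophilins Pkp3 and Pkp4 had 0.28 and -0.04 in CD24+/CD29lo cells and Perp and Pkp3 had -0.20 and -0.27 in CD24+/CD29+ cells.

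Of 16 transcription factors known to act on keratin genes, 2 were called higher and 3 lower in the CD24+/CD29+ gate of GFP+ cells, and 3 higher and 5 lower in that of GFP- cells. Trp63, the p63 factor of basal epithelia, was higher by 3.50 (SE 0.33, adjusted p = 1.2e-09) in GFP+ cells and by 3.54 (SE 0.37, adjusted p = 8.4e-09) in GFP- cells. The ETS factors were lower. Elf5 differed by -5.68 (SE 0.34, adjusted p = 2.7e-14) in GFP+ cells and by -3.66 (SE 0.37, adjusted p = 5.0e-09) in GFP- cells, and Ehf by -4.55 (SE 0.36, adjusted p = 1.8e-11) and -3.94 (SE 0.39, adjusted p = 4.2e-09). Elf3 differed by -2.53 (SE 0.57, adjusted p = 0.0018) in GFP+ cells and by -2.02 (SE 0.62, adjusted p = 0.031) in GFP- cells. In CD24+/CD29lo cells the one factor called with GFP was Foxa1, a luminal forkhead factor, which was lower in GFP+ cells (-1.54, SE 0.26, adjusted p = 0.0037), with 1 of 9 GFP+ arrays and 9 of 10 GFP- arrays detecting it. Foxa1 was detected on no CD24+/CD29+ array, so a GFP difference in that gate could not be read. For the interaction of GFP with the gate, 1 of the 16 factors was called, with an estimate below 0. None was called with GFP in CD24+/CD29+ cells, where Tfap2c and Nfib had -0.47 and 0.44. The median over the 16 was -0.16 in GFP+ cells and -0.31 in GFP- cells, beside -0.01 and 0.03 over all genes.

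Among 15 proteins that bind, cross-link or turn over keratin, 2 were called lower in the CD24+/CD29+ gate of GFP+ cells, both transglutaminases, which cross-link proteins. Tgm1 differed by -1.46 (SE 0.31, adjusted p = 0.0011) and Tgm2 by -1.06 (SE 0.31, adjusted p = 0.020). In GFP- cells Tgm2 differed by -2.44 (SE 0.34, adjusted p = 2.6e-06), the chaperone gene Dnajb6 by -0.84 (SE 0.27, adjusted p = 0.046) and Hspa8 by 0.89 (SE 0.26, adjusted p = 0.020). Tgm2 was the one gene of this list called with GFP in CD24+/CD29lo cells, lower in GFP+ cells (-1.67, SE 0.22, adjusted p = 3.4e-04), and in CD24+/CD29+ cells Hspa8 and Hspb1 had -0.30 and 0.24, not called. The other intermediate filament genes, 10 tested, had 2 called higher in the CD24+/CD29+ gate of GFP+ cells and 4 in that of GFP- cells, with none lower. Vim, the vimentin of mesenchymal and myoepithelial cells, was detected on all 9 GFP+ CD24+/CD29+ arrays and on none of the 9 GFP+ CD24+/CD29lo arrays, at least 13.7-fold higher (adjusted p = 5.0e-18), and in GFP- cells it differed by 3.63 (SE 0.19, adjusted p = 1.7e-15). Synm, synemin, was higher by 3.21 (SE 0.38, adjusted p = 8.6e-08) in GFP+ cells and by 3.58 (SE 0.42, adjusted p = 8.4e-08) in GFP- cells. Des, the muscle desmin, was higher in GFP- cells by 2.73 (SE 0.59, adjusted p = 0.0014), and so was the lamin gene Lmna by 0.65 (SE 0.18, adjusted p = 0.016). None of the 10 was called with GFP, where Lmna had 0.43 in CD24+/CD29lo cells and -0.33 in CD24+/CD29+ cells. The medians over the binding proteins were -0.06 in GFP+ and -0.07 in GFP- cells and those over the other filament genes 0.06 and 0.30, beside -0.01 and 0.03 over all genes.

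The genes whose levels followed a keratin most closely over all 34 arrays are given as a description, since those arrays share a normalization and fall into the 2 gates. For Krt5 they were Flna, Pxdn and Fstl1, with Pearson r of 0.97, 0.93 and 0.93. Flna, which encodes the actin cross-linker filamin A, had r of 0.93 with Krt5 over the 15 CD24+/CD29+ arrays and 0.83 over the 19 CD24+/CD29lo arrays. After the mean of each group and set was taken off these were 0.49 and 0.81. For Krt14 they were Col17a1 (0.93), Egr3 (0.92) and Cxcl14 (0.92), of which Col17a1 had r of 0.45 within the CD24+/CD29+ gate and 0.64 within the CD24+/CD29lo gate after those means were taken off. Krt8 was followed by Ceacam1 (0.96), Ceacam2 (0.94) and Cmas (0.94). Krt18 was followed by Ehf (0.96), Cldn3 (0.95) and Nupr1 (0.95), and within the CD24+/CD29lo gate Ehf and Krt18 had r of -0.18, or -0.42 with those means off. Krt19 was followed by Ceacam1 (0.95), Tlr4 (0.94) and Nupr1 (0.93). Ceacam1, an epithelial cell adhesion molecule, was thus among the nearest genes of both Krt8 and Krt19, and it had r of 0.86 with Krt8 within the CD24+/CD29lo gate, or 0.70 with those means off.

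Marker lists were read beside the gate comparisons. Of the 15 basal markers 14 were called higher in the CD24+/CD29+ gate of GFP+ cells and 11 in that of GFP- cells, led by the smooth muscle myosin Myh11 (5.65, SE 0.40) in GFP+ cells and by Acta2 (6.81, SE 0.54) in GFP- cells. Of the 12 luminal markers with a probe 7 were called lower in GFP+ cells and 8 in GFP- cells, among them the receptor gene Kit (-5.03, SE 0.35 in GFP+ cells, and -4.11, SE 0.38 in GFP- cells) and the claudin gene Cldn7 (-4.32, SE 0.30, and -3.67, SE 0.32). The genes Itga6, Elf5, Foxa1, Trp63 and Vim stand in more than 1 of the lists used here. Of 13 tested genes of cornifying keratinocytes, the galectin gene Lgals7 was higher in the CD24+/CD29+ gate of GFP+ cells (3.62, SE 0.52) and of GFP- cells (2.71, SE 0.57), and Sbsn was lower (-2.54, SE 0.28, and -1.12, SE 0.31). Spink5 was also called lower in GFP+ cells, and Casp14, Dsg1b and Krt2 were detected on no array. The summed level of this list was 1250 to 3646 in GFP+ CD24+/CD29+ cells and 1278 to 4019 in GFP- CD24+/CD29+ cells, against 565 to 1334 in GFP+ CD24+/CD29lo cells and 528 to 1471 in GFP- CD24+/CD29lo cells. The highest Krt10 values, 10.09 in GFP+ CD24+/CD29+ replicate 11 and 9.83 in GFP- CD24+/CD29+ replicate 33, stood beside sums of 2511 and 2448, inside those ranges. A few bright genes can carry a sum. The mean log2 level of the keratinocyte list was 5.08 to 5.55 (GFP+) and 5.25 to 5.44 (GFP-) in CD24+/CD29+ cells. It was 4.94 to 5.34 (GFP+) and 4.90 to 5.65 (GFP-) in CD24+/CD29lo cells, an overlap. The list's median difference was 0.08 in GFP+ and 0.12 in GFP- cells.

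Of 8 fibroblast genes, 2 were called higher in the CD24+/CD29+ gate of GFP+ cells, the proteoglycan gene Dcn (2.86, SE 0.57) and the collagen gene Col1a2 (1.84, SE 0.35), and 3 in that of GFP- cells, these and Col3a1 (3.26, SE 0.43). Their summed levels were 373 to 1425 in GFP+ and 935 to 2467 in GFP- CD24+/CD29+ cells, against 343 to 637 in GFP+ and 331 to 698 in GFP- CD24+/CD29lo cells. Of 4 tested adipocyte genes Fabp4 was higher in the CD24+/CD29+ gate of GFP+ cells (2.65, SE 0.56) and of GFP- cells (2.31, SE 0.62), and Lpl, detected on no GFP+ CD24+/CD29+ array, was at least 4.68-fold lower in that gate of GFP+ cells. None of 5 tested endothelial genes was called. Of 6 blood cell genes, the hemoglobin gene Hba-a1 was called lower in GFP- CD24+/CD29+ cells, where it was not detected, and Ptprc, the pan-leukocyte marker, was detected on no array. The part of these cells in the keratin differences was not tested.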

How the data were processed

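MECs were sorted with CD24, CD29 and GFP after dead, CD45+, Ter119+ and CD31+ cells were gated out, and their RNA was amplified before hybridization. The authors deposited, for each of 34 arrays, raw probe intensity with a detection value, a fraction that equals 1 minus the detection p. The authors also deposited processed log2 values, made with lumi quality control, quantile normalization and an empirical Bayes correction for batch. The submitters' processing notes name R 2.14.1. All 34 arrays matched their own processed column, and no 2 arrays held identical values. Of 45281 probes, 34885 had 1 gene symbol, 18 several and 10378 none, and only those with 1 symbol were named.

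The raw intensity was corrected with neqc (normexp from detection p, offset 16, quantile) in limma 3.58.1 under R 4.3.3 with data.table (version 1.17.8). Probes had to lie above the 20th percentile of the array on 80% of the arrays of at least 1 group. The gate comparisons and the interaction used all 34 arrays normalized together, and the GFP comparisons used the 19 or 15 arrays of 1 gate, as the study renormalized its subset. Tests were two-sided (lmFit, eBayes) with p adjusted by Benjamini-Hochberg across every kept probe. The threshold was 0.05, and a gene was called by its probe of highest mean. The script was tested on simulated data. All 10 keratins are named. From each other list, up to 4 called genes of largest change are eligible, or the 2 of highest mean where none was called, and some eligible genes are left out for length. The 3 genes closest to Krt5, Krt14, Krt8, Krt18 and Krt19 by Pearson r are named as well. The members and lists were chosen with earlier results of these data known. The number of arrays limits the precision.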

Additional observations from a re-analysis of the deposited data

Results flagged for a closer look

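In 5 of the 40 combinations of keratin and group, 1 sample lay farther from the others than Dixon's 95% limit allows, a rule that chance meets in about 1 of 20 groups. The value is the gap to the nearest sample divided by the range of the group. Krt14 in GFP+ CD24+/CD29lo cells was lowest in replicate 16 (5.96, nearest 8.52, value 0.598). Krt17 in GFP+ CD24+/CD29+ cells was lowest in replicate 32 (11.74, nearest 12.36, value 0.632). Krt7 in GFP+ CD24+/CD29+ cells was highest in replicate 9 (7.06, nearest 5.70, value 0.541). GFP- CD24+/CD29+ replicate 25 was highest for both Krt7 (9.74, nearest 6.07, value 0.717) and Krt19 (8.93, nearest 7.31, value 0.636).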

How the results depend on the processing

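No paired analysis was possible because the labels do not say which samples were sorted from the same animals. The replicate number used here is only the running sample number in each label. Of 380 values under other settings, 374 kept their side of the threshold, 2 lost the call and 4 gained it. Of 1020 values with 1 sample left out, 1015 kept their side, 2 lost the call and 3 gained it. Sizes moved more than calls, and without background correction or with the authors' processed values Krt15 (3.42 and 3.46 in GFP+ cells, 3.53 and 3.52 in GFP- cells) and Krt7 (-2.24 and -2.28, and -2.63 and -2.49) differed less between the gates. No called value changed sign, while 22 and 65 uncalled values did. The count of keratins called with GFP in CD24+/CD29lo cells was 0, and became 2 (Krt7 and Krt19) once the fit held the array set, and 2 with the authors' processed values (Krt7 -0.89, adjusted p = 0.027, and Krt19 -0.51, adjusted p = 0.017). The share of all genes called with the processed values is not given here, so that count of 2 has no background beside it. The count ranged from 0 to 1 with 1 sample left out. With the methods' t-test it was 0, as it was in CD24+/CD29+ cells. Between the gates 9 keratins were called in GFP+ and in GFP- cells, and 8 or 9 in the other settings. Over all genes, 218 were called between GFP+ and GFP- CD24+/CD29lo cells, 332 with the set as a term, 139 in the first set and 49 in the second, and in CD24+/CD29+ cells 8 were called, against 0 with the set as a term. The Krt23 call was lost in GFP+ cells within the first set, an alternative chosen after seeing the data (1.00, adjusted p = 0.32). In GFP- cells it was lost with the methods' t-test (1.87, adjusted p = 0.064) and without replicate 21 (1.69, adjusted p = 0.073) or replicate 29 (1.76, adjusted p = 0.060). The causes were not tested. Probes near background, such as Krt7 in CD24+/CD29+ cells, limit how far down a level can be read.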
